A study of Mus musculus with 2 samples.

Results

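Insm1 and 8 proneural genes of the basic helix-loop-helix (bHLH) class are described here across 2 RNA sequencing libraries of the embryonic mouse pituitary. The 9 genes are Neurod1, Neurod2, Neurod4, Neurog1, Neurog2, Nhlh1, Nhlh2, Bhlhe22 and Insm1. They were chosen by name as factors of neurogenic and neuroendocrine differentiation, and each was found by its GENCODE symbol among the 55401 genes of both tables. One library came from wild-type mice and the other from mice lacking the kinase gene Dyrk2 (Dyrk2-/-, labelled Dyrk2-KO), both at embryonic day E12.5. Total RNA was taken from the pituitary, selected for polyA and sequenced with strand kept. The title of the series asks what primary cilia do for cell type determination and vessel growth in this organ. The labels do not say how many embryos made up a library or of which sex they were. Each genotype is represented by 1 library, so differences could not be checked against replicates and no p-values were computed. The 95% intervals describe the error of counting fragments and leave out how embryos or preparations vary.

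Proneural bHLH proteins bind DNA as dimers with the broadly expressed E proteins at short sites called E-boxes. They drive dividing progenitors out of the cell cycle and into neuronal or neuroendocrine fates, commonly in cascades in which an early factor such as a neurogenin switches on a later one such as a Neurod gene. Insm1 is a zinc finger repressor that acts in the same transition through a SNAG domain, which recruits the demethylase Lsd1 with CoREST. In the pituitary, Neurod1 is known for an early role in corticotrophs, the cells that make Pomc, and Insm1 for a role in differentiation of the endocrine cell types.

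The DNA-contacting part shows how alike the bHLH genes are. The 60 coding bases of Neurod1 that best matched the other genes were compared without gaps with the best window of each, read from the coding strand of GENCODE M21 transcripts. They are shown because alike stretches are where fragments of one gene could be taken for another. Capitals mark bases that differ from Neurod1.
Neurod1: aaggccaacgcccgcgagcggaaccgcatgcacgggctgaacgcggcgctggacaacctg
Neurod2: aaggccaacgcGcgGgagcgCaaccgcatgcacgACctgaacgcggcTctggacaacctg
Neurod4: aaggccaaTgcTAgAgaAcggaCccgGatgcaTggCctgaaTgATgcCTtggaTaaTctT
Neurog1: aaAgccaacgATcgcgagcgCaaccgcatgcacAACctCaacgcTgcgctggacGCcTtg
Neurog2: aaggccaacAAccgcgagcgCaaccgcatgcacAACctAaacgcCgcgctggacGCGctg
Bhlhe22: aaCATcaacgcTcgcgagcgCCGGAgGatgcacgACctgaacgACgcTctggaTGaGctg
The Neurod1 window lies at chr2:79454666-79454725 on the minus strand of GRCm38. Identity to Neurod1 was 90.0% for Neurod2, 81.7% for Neurog2, 80.0% for Neurog1, 71.7% for Neurod4 and 70.0% for Bhlhe22. Nhlh1 and Nhlh2 form a pair of their own, and in the next lines capitals mark bases that differ from Nhlh1.
Nhlh1: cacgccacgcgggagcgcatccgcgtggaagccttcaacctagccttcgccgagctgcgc
Nhlh2: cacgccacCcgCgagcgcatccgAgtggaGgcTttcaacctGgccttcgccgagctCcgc
The Nhlh1 window lies at chr1:172054001-172054060 on the minus strand, and the Nhlh2 window, 88.3% identical, at chr3:102012897-102012956 on the plus strand. Even so, the longest run of identical bases between any 2 of the 9 transcripts was 26, between Neurog1 and Neurog2. The median over the 36 pairs was 13 bases. The treatment of fragments with more than 1 match is not stated in those labels.

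All 9 genes are compact. Insm1, Neurog1 and Bhlhe22 each have 1 exon in GENCODE M21, and every protein-coding transcript of the other 6 has its coding sequence in 1 exon. The exon length in the authors' tables equalled the GENCODE M21 length for 9 of 9 genes, from 1686 bases for Neurog1 to 5417 for Nhlh2. Levels are given as FPKM (fragments per kilobase of exon, scaled by library depth), so levels of different genes can be compared.

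Facts of the libraries that touch every value below are brief. The values gave a depth of 20042180 fragments (wild type) and 20115346 fragments (knockout). Dyrk2 itself measured 11.5 and 1.93 FPKM (1443 and 243 fragments). Throughout, the first of a pair of values is the wild-type library. The pouch marker Pitx1 measured 250 and 227 FPKM and Lhx3 73.0 and 85.9 FPKM, so transcripts that mark the labelled organ were abundant in both. Xist, expressed in females, measured 75.0 and 14.8 FPKM and the Y-linked gene Ddx3y 5.83 and 14.9 FPKM. The libraries thus held different mixtures of female and male tissue, and this cannot be told apart from genotype.

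Expression of the set was carried by Insm1 and Neurod1. Both were lower in the library lacking Dyrk2, Neurod1 by a larger factor than Insm1. Bhlhe22 was lower as well and Nhlh2 higher, each from under 1 FPKM. Nhlh1 and Neurod4 were counted in few fragments with intervals that include equality. Neurod2, Neurog1 and Neurog2 had at most 1 fragment in either library. The summed level of the 8 bHLH genes was 4.79 FPKM in the wild-type and 1.63 FPKM in the knockout library. Of that sum Neurod1 made 3.33 and 0.71 FPKM and Bhlhe22 0.88 and 0.30 FPKM. The lower sum thus rests on these genes and does not describe the whole class. In pituitary tissue sequenced as a whole, fewer cells of a type and less RNA per cell cannot be told apart.

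**Figure D1:**
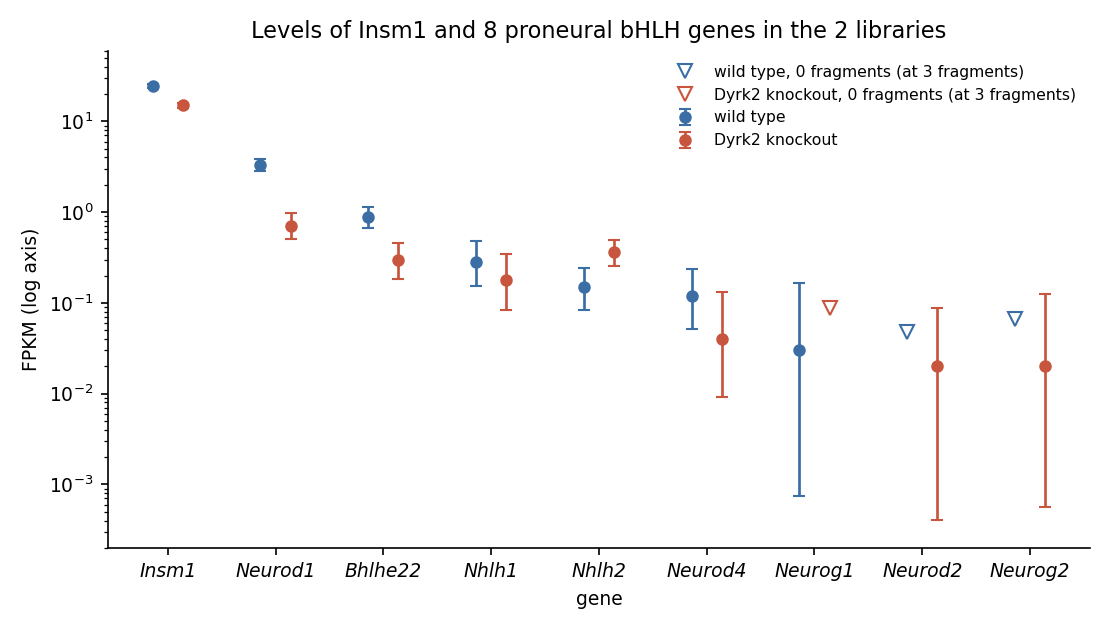
FPKM of the 9 genes (log axis) in the wild-type and the Dyrk2 knockout library, with exact 95% Poisson intervals as bars and open triangles at the level of 3 fragments where none was counted. Insm1, at 24.8 and 15.1 FPKM, stands above the bHLH genes in both libraries, and the intervals of the 2 libraries are apart for Insm1, Neurod1, Bhlhe22 and Nhlh2.

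Insm1 (ENSMUSG00000068154, chr2:146221921-146225020, plus strand) was the most abundant of the 9. It measured 24.8 FPKM in the wild-type library (1538 fragments, 95% Poisson interval 23.5 to 26.0) and 15.1 FPKM in the knockout library (939 fragments, 14.1 to 16.1). The 2 intervals do not overlap. The knockout library held 60.8% of the wild-type level, with an exact Clopper-Pearson interval of 56.0% to 66.0%, a 1.64-fold lower level (1.51 to 1.78). No annotated gene overlaps Insm1 or starts within 20 kb of it.

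Its size can be set against all other genes. After 0.5 FPKM was added to both values, the log2 ratio of knockout over wild type was -0.70 for Insm1 and -1.66 for Neurod1. The median was -0.02 over the 14000 genes that reached 1 FPKM in either library. Among these genes 4.56% were at least 1.5-fold lower by that measure and 2.06% at least 1.5-fold higher. Neurod1 and Insm1 are the 2 of the 9 genes that reached this minimum (the other 7 did not), and both lie beyond 1.5-fold on the lower side. Insm1 reached it in both libraries, but Neurod1 in the wild-type library only, where it is high. Counted from the lowest ratio, Neurod1 ranked 115 and Insm1 476 of 14000.

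Neurod1 (ENSMUSG00000034701, chr2:79452521-79456751, minus strand), which promotes neuronal and endocrine differentiation, was second in level. It measured 3.33 FPKM in the wild-type library (182 fragments, 2.86 to 3.85) and 0.71 FPKM in the knockout library (39 fragments, 0.51 to 0.97). Here too the intervals are apart. The knockout level was 21.4% of the wild-type level (14.7% to 30.3%), a 4.68-fold lower level (3.30 to 6.80). This interval lies wholly above that of Insm1. As a result Insm1 exceeded Neurod1 7.43-fold (6.38 to 8.72) in the wild-type library and 21.2-fold (15.4 to 30) in the knockout library.

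The Neurod1 locus is shared with other genes. Cerkl, a ceramide kinase-like gene on the same strand, shares 201 exon bases with Neurod1, 7.37% of its exon length, and Gm26755, a long non-coding RNA gene on the opposite strand, shares 154 bases. Cerkl itself measured 0.45 and 0.14 FPKM (48 and 15 fragments), 3.21-fold lower in the knockout library (1.77 to 6.17). Which gene received the fragments of the shared bases is not stated in the labels. With all fragments of Cerkl added to those of Neurod1, a step chosen after the data were seen, the totals were 230 and 54 fragments and the level was 4.27-fold lower (3.17 to 5.86). Gm26755 was not analysed here.

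Bhlhe22 (ENSMUSG00000025128, chr3:18054174-18057517, plus strand), a bHLH repressor of the Olig-related branch that acts in neuronal subtypes, was low in both libraries. It measured 0.88 FPKM (59 fragments, 0.67 to 1.14) and 0.30 FPKM (20 fragments, 0.18 to 0.46). The knockout level was 33.8% of the wild-type level (19.3% to 56.9%), 2.96-fold lower (1.76 to 5.19), from few fragments in the knockout library.

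Nhlh1 and Nhlh2, bHLH genes of newly formed neurons, did not share a direction beyond counting error. Nhlh2 (ENSMUSG00000048540, chr3:102010076-102015492, plus strand), which is known for a role in hypothalamic and gonadotropin-releasing hormone neurons, measured 0.15 FPKM (16 fragments, 0.08 to 0.24) and 0.36 FPKM (39 fragments, 0.25 to 0.49). It was 2.43-fold higher in the knockout library (1.33 to 4.66). Nhlh1 (ENSMUSG00000051251, chr1:172052292-172057573, minus strand) measured 0.28 FPKM (14 fragments, 0.15 to 0.48) and 0.18 FPKM (9 fragments, 0.08 to 0.34). Its ratio of knockout over wild type was 0.64 with an interval of 0.24 to 1.59, so a difference of either sign was not detectable at this depth.

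How common such intervals are depends on the level. Of the genes of at least 1 FPKM, 22.3% had an interval wholly below a ratio of 1 and 17.8% wholly above it. Of the 2883 genes under 1 FPKM in both libraries with at least 20 fragments in the 2 together, where Bhlhe22, Nhlh1 and Nhlh2 lie, 16.8% had an interval wholly below 1 and 6.28% wholly above it. An interval that excludes 1 is thus frequent in these libraries, and it says nothing of the spread between embryos.

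The remaining neurogenic genes were at the limit of detection. Neurod4 (ENSMUSG00000048015, chr10:130268152-130280240, minus strand), a factor that acts beside Neurod1 in pituitary and retina, measured 0.12 FPKM (8 fragments, 0.05 to 0.24) and 0.04 FPKM (3 fragments, 0.01 to 0.13). Its ratio of 0.37 had an interval of 0.06 to 1.56. Neurog1 (ENSMUSG00000048904, chr13:56250478-56252163, minus strand), a determinant of cranial sensory neurons, had 1 fragment in the wild-type and 0 in the knockout library. Neurog2 (ENSMUSG00000027967, chr3:127633135-127635631, plus strand), a determinant of cortical and sensory neurons, had 0 and 1. Neurod2 (ENSMUSG00000038255, chr11:98325415-98329648, minus strand), a factor of maturing forebrain neurons, also had 0 and 1. A count of 0 allows up to 3 fragments, which equals 0.088 FPKM for Neurog1 in the knockout library, 0.067 FPKM for Neurog2 and 0.048 FPKM for Neurod2 in the wild-type library. No fold is given for these 3 genes.

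**Figure D2:**
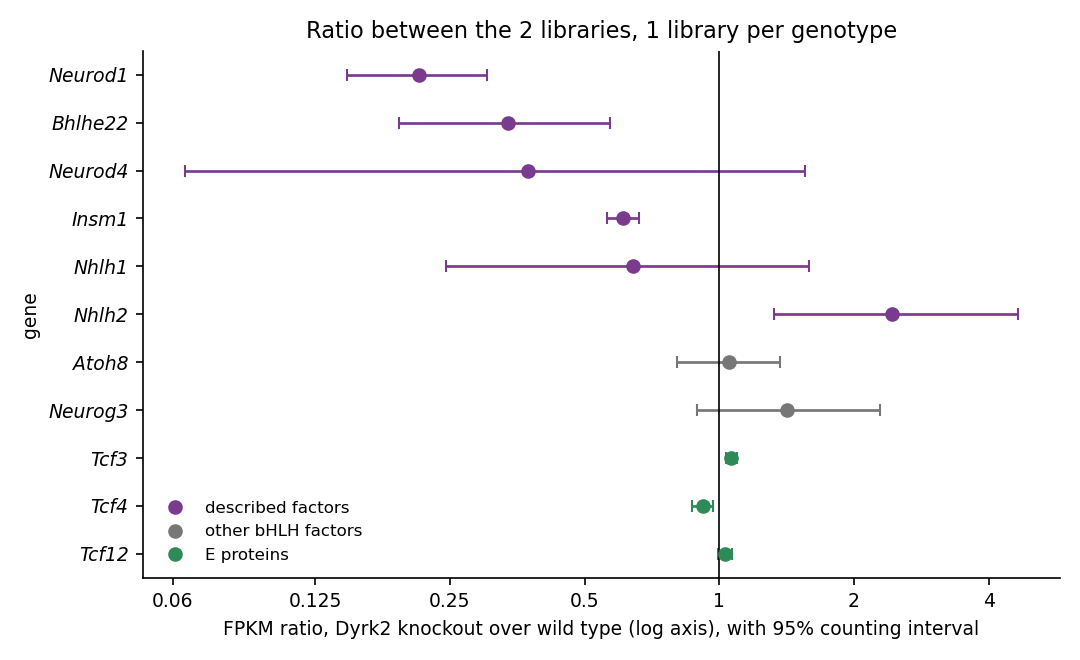
Ratio of FPKM in the knockout over the wild-type library (log axis) with exact 95% counting intervals for the 6 described factors with more than 3 fragments, 2 other bHLH factors and the 3 E proteins. Neurod1 (0.21), Bhlhe22 (0.34) and Insm1 (0.61) lie left of 1 and Nhlh2 (2.43) right of it, while Atoh8 and Neurog3 have intervals that include 1.

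The order of levels was alike at the top and differed below. In the wild-type library it ran Insm1, Neurod1, Bhlhe22, Nhlh1, Nhlh2 and Neurod4. The first 3 steps were larger than counting error, with Bhlhe22 3.14-fold above Nhlh1 (1.71 to 6.02), whereas Nhlh1, Nhlh2 and Neurod4 could not be ranked among their neighbours. In the knockout library Nhlh2 came next, behind Neurod1 by 1.97-fold (1.24 to 3.18), and was not apart from Bhlhe22, at a ratio of 1.20 (0.69 to 2.18).

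The stretch before each start site was searched for E-boxes. RefSeq's promoter table for GRCm38.p6, 250 bases before to 50 after the start, held 7 of the 9 genes. Insm1 and Bhlhe22 had no entry. The E-box CANNTG, which reads alike on both strands, occurred in 5 of the 7 and in 72.1% of 27025 promoters of the same length. The form CAGATG, or CATCTG on the other strand, which is contained in CANNTG, occurred in 3 of 7 (Neurod2, Nhlh1 and Nhlh2) and in 17.2% of all promoters. CAGCTG, also a form of CANNTG, occurred in Nhlh2 alone of the 7 and in 16.1% of all. Of the 4 genes whose ratio excluded 1, Neurod1 and Nhlh2 are in the table, and their bases before any annotated exon are printed with E-boxes in capitals, beside Nhlh1, the nearest relative of Nhlh2.
Neurod1: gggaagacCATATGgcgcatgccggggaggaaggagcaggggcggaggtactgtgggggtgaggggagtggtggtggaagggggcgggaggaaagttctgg
Nhlh2: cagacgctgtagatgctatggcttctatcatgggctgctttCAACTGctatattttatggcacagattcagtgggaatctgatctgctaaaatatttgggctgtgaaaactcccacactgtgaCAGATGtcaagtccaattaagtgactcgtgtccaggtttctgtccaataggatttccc
Nhlh1: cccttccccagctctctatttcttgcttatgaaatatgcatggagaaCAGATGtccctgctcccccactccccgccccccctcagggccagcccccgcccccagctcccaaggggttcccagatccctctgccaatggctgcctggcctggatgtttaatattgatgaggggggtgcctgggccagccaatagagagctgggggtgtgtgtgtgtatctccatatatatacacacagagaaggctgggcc
They are chr2:79456786-79456886 on the minus strand, chr3:102009895-102010075 on the plus strand and chr1:172057597-172057846 on the minus strand. Neurod1 holds 1 E-box there, CATATG. Nhlh2 holds CAACTG and CAGATG, and Nhlh1 holds CAGATG. These matches describe the letters of the reference and were not measured as bound sites.

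Few other bHLH genes of the neurogenic class were above the minimum. Of 14 listed relatives, 2 reached 1 FPKM, and both lay within 1.5-fold, as most genes did (4.56% of all genes were that much lower and 2.06% higher). Atoh8, an atonal relative, measured 2.27 and 2.38 FPKM. Neurog3, the determinant of endocrine cells in pancreas and gut, measured 0.98 FPKM (33 fragments) and 1.40 FPKM (47 fragments), a ratio of 1.42 (0.89 to 2.29). Of the 14, 5 were at 0 in both libraries.

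The dimer partners were abundant and close to level. Tcf3 measured 112 and 119 FPKM, Tcf12 19.3 and 19.8 FPKM, and Tcf4 4.99 and 4.58 FPKM. No log2 ratio of the 3 was beyond the range of -0.11 to 0.09. With 9064 and 9686 fragments for Tcf3, the interval of its ratio, 1.03 to 1.10, excludes 1 at a small difference. That of Tcf4, 0.87 to 0.97, excludes 1 on the lower side.

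Inhibitors of proneural activity did not share a direction. Id proteins, which bind E proteins and lack a DNA-contacting region, were each somewhat higher in the knockout library, with Id1 at 87.0 and 106 FPKM, Id2 at 52.7 and 61.7 FPKM, Id3 at 156 and 178 FPKM and Id4 at 38.5 and 49.7 FPKM. Their ratios ran from 1.14 for Id3 to 1.29 for Id4, and all 4 intervals lay above 1. Of the Notch-responsive repressors, Hes1 measured 43.4 and 40.5 FPKM, Hey1 65.7 and 50.9 FPKM, and Heyl 14.6 and 5.70 FPKM. Hes5, another of them, went the other way at 2.45 and 3.06 FPKM, with a ratio of 1.25 whose interval (0.90 to 1.75) includes 1. Rest, which silences neuronal genes outside neurons, measured 8.86 and 9.40 FPKM. Over the list of 10, all above 1 FPKM, the median was 0.13. In it 1 gene (Heyl) was at least 1.5-fold lower and 0 were that much higher (4.56% and 2.06% of all genes).

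Corepressors that work with Insm1 were near level. Of 13 listed genes, including the SNAG relatives Gfi1, Gfi1b and Insm2, 10 passed the minimum and all 10 lay within 1.5-fold, with a median of 0.00 and a range of -0.17 to 0.13. Most genes lay within 1.5-fold as well, since 4.56% of all genes were that much lower and 2.06% higher. Kdm1a, which encodes Lsd1, measured 37.2 and 39.6 FPKM and Hdac2, a deacetylase of the same complex, 67.9 and 70.8 FPKM. Insm2, the closest relative of Insm1, had 9 fragments (0.17 FPKM) in the wild-type and 0 in the knockout library. Against a floor of 3 fragments per library it was 3.03-fold lower, and the lower 95% counting limit was 1.98-fold.

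Genes commonly placed downstream of proneural factors went both ways. Of 21 listed, 17 were measured, with a median of -0.04. Of these, 1 was lower and 2 were higher by at least 1.5-fold, against 4.56% and 2.06% of all genes of at least 1 FPKM. Hes6, a bHLH gene that promotes differentiation, and Btg2, an antiproliferative gene of neurogenic divisions, measured 38.8 and 37.3 FPKM and 23.5 and 22.8 FPKM. The Notch ligand gene Dll4, which is also expressed in vessels, was 1.79-fold lower (1.44 to 2.22), at 3.13 and 1.76 FPKM. Ebf2 and Ebf3, transcription factors of early neurons that are also expressed in mesenchyme, were higher in the knockout library. Ebf3 measured 1.28 and 3.48 FPKM, a ratio of 2.72 (2.34 to 3.17), and Ebf2 1.17 and 2.85 FPKM, a ratio of 2.44 (2.03 to 2.95). Ebf1, of the same list, went the other way within 1.5-fold, at 3.12 and 2.31 FPKM, a ratio of 0.74 (0.65 to 0.84).

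Most measured secretory genes of neuroendocrine cells were lower in the knockout library, as Neurod1 and Insm1 were. Of 19 listed, 15 were measured, 11 were at least 1.5-fold lower and 0 that much higher, with a median of -1.04. Among all genes of at least 1 FPKM, 4.56% were that much lower and 2.06% higher. This list, like the others, was chosen with earlier results of these data known. Scgn, a calcium sensor of endocrine cells, measured 5.12 and 0.46 FPKM, 11.1-fold lower (6.54 to 20.3). Ptprn, a membrane protein of dense-core granules, measured 5.94 and 1.12 FPKM, 5.29-fold lower (4.25 to 6.65). The granin genes Chga and Scg2 measured 94.9 and 10.8 FPKM and 189 and 33.7 FPKM. The processing gene Cpe, at 53.5 and 49.5 FPKM, and Pcsk1n, at 14.2 and 13.1 FPKM, lay close to level. Syt1, a calcium sensor of vesicles, was higher, at 1.52 and 2.37 FPKM, a ratio of 1.56 (1.33 to 1.83) that falls short of 1.5-fold once 0.5 FPKM is added.

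Lineage genes of the pituitary were less uniform. Of 19 listed, 14 were measured, with a median of -0.09. Cga, Gata2 and Lhx4 (3 genes) were lower and 1, Gata3, was higher by at least 1.5-fold (4.56% and 2.06% of all genes). Gata3, at 0.80 and 2.29 FPKM, reached 1 FPKM in the knockout library only. Lhx4, at a log2 ratio of -0.60, lies at the threshold, and 2 genes were lower with 2 FPKM added or with trimmed-mean scaling. The corticotroph genes lay at ratios near 1 beside the lower Neurod1. Pomc measured 8.67 FPKM (7.58 to 9.87) and 8.71 FPKM (7.63 to 9.91), and Tbx19, the factor that activates Pomc, had 30 and 31 fragments, with a ratio of 1.03 (0.60 to 1.76). Cga, the shared hormone subunit, measured 55.4 and 17.0 FPKM.

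Markers of nearby neural tissue are given because proneural genes are also active there. Among 21 cranial sensory ganglion markers, 8 were measured, with a median of -0.17. By at least 1.5-fold, 1 was lower (Isl2, at 4.35 and 2.40 FPKM) and 1 higher (Sncg, at 0.88 and 3.50 FPKM). Among all genes 4.56% were that much lower and 2.06% higher, and Sncg reached 1 FPKM in the knockout library only. The summed level of the 21 markers was 35.8 and 29.99 FPKM, of which Isl1, also a pituitary factor, made 16.4 and 12.0 FPKM. Of the defining genes, Tlx3 and Prph were at or below 0.07 FPKM in both libraries, while Pou4f1 had 89 and 20 fragments (0.95 and 0.21 FPKM). Neurog1, which founds these ganglia, was at 1 and 0 fragments.

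Pan-neuronal genes split. Of 20 listed, 17 were measured, 11 had log2 ratios above 0 and 6 below, and the median was 0.16. Of the 17, 3 were at least 1.5-fold lower and 0 that much higher (4.56% and 2.06% of all genes). The tubulin gene Tubb3 measured 15.9 and 23.1 FPKM and the RNA-binding gene Elavl3 2.45 and 3.83 FPKM, both higher in the knockout library. Nefm, Celf3 and Rbfox3 were lower, at 16.8 and 9.19 FPKM, 6.20 and 3.62 FPKM, and 2.40 and 1.38 FPKM. The summed level of the 20 listed genes was 143 and 129 FPKM. The most expressed of them was Nefl, at 49.99 and 34 FPKM, a ratio of 0.68 (0.65 to 0.72) that lies within 1.5-fold. The difference of Nefl exceeds that of the sum, so the lower sum does not describe most of the list. The 7 neural progenitor genes all lay within 1.5-fold, as most genes did, with a median of 0.11. Among them Sox2, which is also on the pituitary lineage list, measured 66.9 and 68.4 FPKM and Nes 28.9 and 30.8 FPKM.

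Hypothalamic and olfactory genes complete the neighbours. Of 23 hypothalamic markers 14 were measured, with a median of 0.12. Of these, 1 (Sox14, at 7.59 and 0.82 FPKM) was at least 1.5-fold lower and 0 that much higher (4.56% and 2.06% of all genes). Sox14 reached 1 FPKM in the wild-type library only. The defining genes Nkx2-1 and Rax measured 25.9 and 25.3 FPKM and 14.2 and 13.3 FPKM. Of 10 olfactory markers 6 were measured, with a median of 0.13. By at least 1.5-fold 1 was higher (Sp8, at 0.16 and 1.12 FPKM), as were 2.06% of all genes. Sp8 reached 1 FPKM in the knockout library only. The defining genes Gnrh1 and Omp were at or below 0.62 FPKM in both libraries. The summed levels were 200 and 176 FPKM for hypothalamic and 20.3 and 20.1 FPKM for olfactory markers. The most expressed hypothalamic marker was Six6, also a pituitary factor, at 95.3 and 69.7 FPKM, a ratio of 0.73 (0.71 to 0.76), and its difference exceeds that of the sum. The part of these tissues in the values of Neurod1, Insm1, Bhlhe22 and Nhlh2 was not tested.

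**Figure D3:**
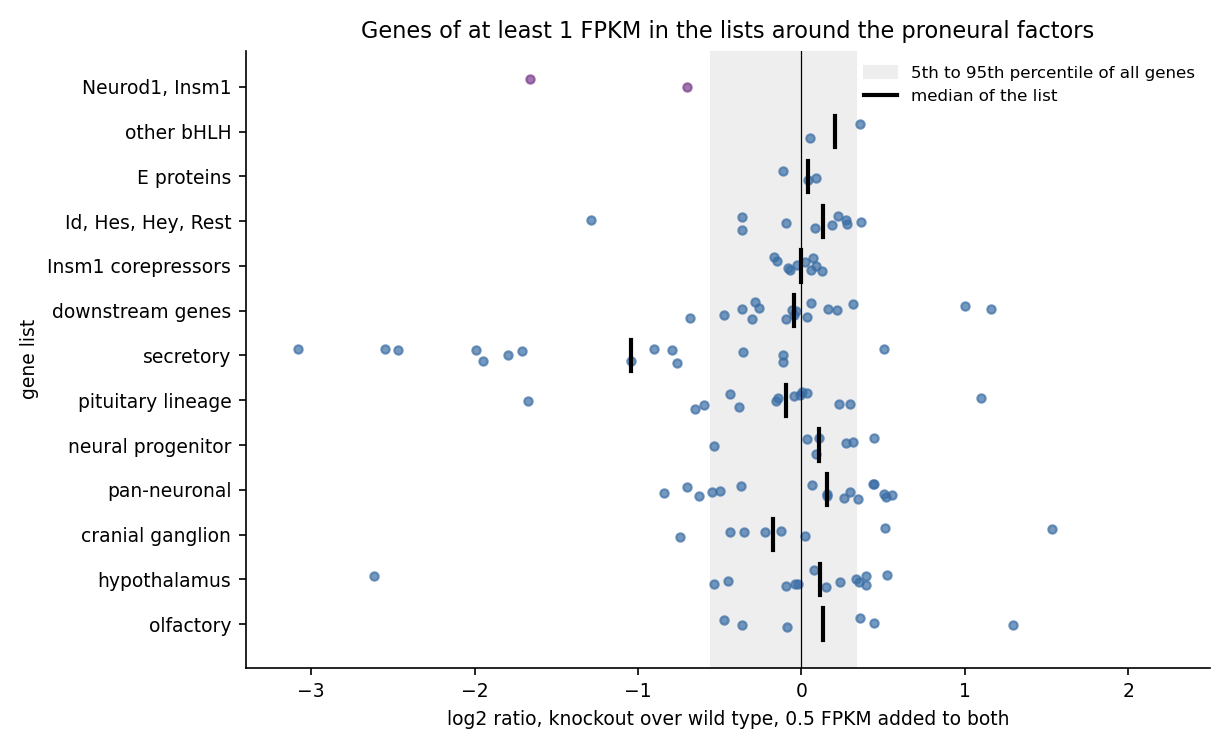
Log2 ratio of knockout over wild type, with 0.5 FPKM added to both, for every listed gene that reached 1 FPKM in either library, with 1 row per list, a black bar at the list median and a grey band from the 5th to the 95th percentile of all 14000 genes (-0.55 to 0.34). Neurod1 and Insm1 lie left of the band, as do 11 of the 15 secretory genes, whereas the E proteins and the Insm1 corepressors lie inside it. The lists were chosen with earlier results of these data known.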

How the data were processed

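Total RNA of 1 wild-type and 1 Dyrk2-KO pituitary sample was grouped by the genotype label. The authors deposited FPKM per Ensembl gene with the summed exon length, per the file headers. The submitters' processing notes name the build GRCm38, HISAT2 2.0.1 and cutadapt 1.9.1. No label states the counting tool, its use of strand or the annotation release. The deposited exon lengths, in bases (another column of each table), were used to turn FPKM into fragments.

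The product of FPKM and exon length is a whole number of fragments over the library total. The smallest total that gave whole fragments was taken as depth, and all 1065 wild-type and 953 knockout values checked (at most 100 fragments) were whole within 0.1 fragment. Fragments gave exact 95% Poisson intervals of FPKM and exact Clopper-Pearson intervals of the ratio (scipy 1.17.1). PCR copies are not independent molecules, so intervals and floors of 3 fragments cover counting error only. No count model was used. Log2 ratios add 0.5 FPKM to both values, which understates differences of low genes, and counts of genes by fold use genes that reached 1 FPKM in either library. GENCODE M21 gave symbols for 55141 of 55401 identifiers. The steps were tested on simulated data.

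Of the planned protein comparison, only coding bases were compared, and protein sequences were not used here. The genes, lists and tests were chosen with earlier results of these data known. Named genes were all 9, Dyrk2, overlapping genes, and from each list up to 4 with the largest ratio beyond 1.5-fold and the 2 most expressed. Of the lists, 2 genes are not reported here. Other list members were chosen after their values were seen. Alternatives were pseudocounts of 0.1 and 2 FPKM, a filter of 5 FPKM and none, 2 rescalings, a 2-fold threshold and a 99% interval.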

Additional observations from a re-analysis of the deposited data

How the results depend on the processing

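No paired analysis was possible because each genotype had a single library. Over the alternatives the log2 ratios of the 6 genes with fragments in both libraries gave 25 values, and 24 moved by less than the counting interval, which is wide for the low genes: Bhlhe22 went from -0.79 to -0.32 with 2 FPKM added and Nhlh2 from 0.40 to 0.88 with 0.1 FPKM. Neurod2, Neurog1 and Neurog2 are not counted here. The exception was Neurod1 with 2 FPKM added, at -0.98, since 2 FPKM is near its own level. Rescaling the knockout library by a trimmed mean of log ratios (1.01) or by the upper quartile (1.02) changed no call among the 9 genes. With a filter of 5 FPKM only Insm1 is counted, so that 1 gene in place of 2 is at least 1.5-fold lower, and 1 has an interval below equality (1.97% and 21.6% of all genes there). With a threshold of 2-fold, 1 gene (Neurod1) is lower, as are 1.89% of all genes. Without a filter 3 genes are at least 1.5-fold lower, Bhlhe22 being the third, and Nhlh2 becomes the 1 gene with an interval above equality, against 4.775% lower by fold and 11.07% with an interval above equality among all genes. The median of Neurod1 and Insm1, -1.18, was -0.81 with 2 FPKM added and -0.70 with the 5 FPKM filter, and over the 9 genes without a filter it was -0.20. In the gene lists 27 of 30 medians and 52 of 60 counts stayed near their values. With the 5 FPKM filter the pan-neuronal median turned to -0.10 and the hypothalamic one from 0.12 to -0.09, and 7 rather than 11 secretory genes were lower. The secretory median, -1.04, was -1.79 with that filter and -0.70 with 2 FPKM added. Depth limits Nhlh1 and Neurod4, whose intervals span more than 4-fold, and leaves Neurod2, Neurog1 and Neurog2 without a ratio.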

Other observations

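A few neuronal transcription factors of the marker lists lay under 1 FPKM in both libraries, as Bhlhe22 and Nhlh2 did, and differed by more than counting error. They were singled out after their values were seen. Sim1, a factor of hypothalamic neurons that make neurohypophyseal hormones, had 90 fragments in the wild-type and 5 in the knockout library, 18.1-fold lower (7.46 to 57). Pou4f1, a factor of sensory neurons, was 4.47-fold lower (2.73 to 7.66), and Phox2a, a factor of autonomic and cranial motor neurons, had 31 and 10 fragments, 3.11-fold lower (1.49 to 7.11). Lhx8, a forebrain and craniofacial factor, went the other way with 0 and 18 fragments, 5.92-fold higher against a floor of 3 fragments per library, with a lower 95% counting limit of 4.38-fold. Of all genes under 1 FPKM with at least 20 fragments in the 2 libraries together, which takes in Sim1, Pou4f1 and Phox2a but not Lhx8, 16.8% had an interval wholly below equality.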
